A study of Mus musculus with 10 samples.

Results

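The genes described here supply T cells with amino acids or answer to their shortage. They are the transcription factor ATF4 with its regulators and stress targets, enzymes of amino acid synthesis, enzymes of the folate-bound one-carbon pathway, and amino acid transporters. The list held 37 genes chosen by name, with earlier results of these data known. Each gene was read from the probe set annotated to that gene alone with the highest mean over all arrays. Pycr1, which makes proline, had no such probe set, which left 36 of the 18193 genes with a probe set. Of these, 34 exceeded the median intensity of 2 or more arrays and were tested among 11318 genes: 11 regulators and stress targets, 9 synthesis enzymes, 5 one-carbon enzymes and 9 transporters. Aldh1l2, a mitochondrial folate enzyme, and Slc7a11, the cystine transporter, did not pass and ranged from 0.334 to 22.8 and from 1.02 to 20.4 in intensity.

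The study asked how far the Foxp3 protein and the epigenetic state of regulatory T cells (Tregs) each account for Treg gene expression. CD4+ spleen cells were sorted by GFP, which in DEREG mice is driven by the Foxp3 promoter of a transgene, and all were activated through CD3 and CD28, given a pGCSamIN retrovirus carrying an NGFR marker, and sorted for NGFR. Each group had 2 arrays. Treg mock cells were GFP+ cells of DEREG mice with empty vector, and conventional (Tconv) mock cells were GFP- cells of the same mice with empty vector. Tconv Foxp3-labelled cells were GFP- DEREG cells labelled as given the Foxp3 vector. Scurfy mock and scurfy Foxp3-labelled cells were GFP+ cells of DEREG/Scurfy mice, whose own Foxp3 gene carries the scurfy mutation, with empty vector or the Foxp3 vector. The strain label reads DEREG_Balb/c for all 10 arrays, animal age is not given, and the abbreviation in the sample descriptions was read as DEREG/Scurfy. Nothing in the labels says that the 2 arrays of a group came from separate mice or cultures, so p-values measure the spread between arrays only.

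ATF4 is translated when the kinases of the integrated stress response, among them GCN2, which senses uncharged tRNA, phosphorylate the initiation factor eIF2. ATF4 then binds C/EBP-ATF response elements and switches on genes for asparagine and serine synthesis, amino acid uptake and, under lasting stress, the factors CHOP (Ddit3) and Trib3. Activated T cells draw on serine and one-carbon units for nucleotide synthesis and take up amino acids through SLC7A5 and SLC3A2, SLC1A5 and SLC38A family transporters.

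Values were the deposited linear intensities, and the array medians lay between 18.8 and 36.5. Pearson's r between the 2 arrays of a group, over genes, ran from 0.921 in scurfy mock to 0.976 in Tconv Foxp3-labelled cells. Each of scurfy Foxp3-labelled array 1 and scurfy mock array 2 correlated more closely with the other (r = 0.974) than with its own replicate. The Foxp3 probe set read 53.9 and 35.9 in Tconv mock, 18 and 18.9 in Tconv Foxp3-labelled, 2130.3 and 3128 in Treg mock, 1188 and 1114 in scurfy mock, and 948 and 691 in scurfy Foxp3-labelled cells. It was therefore no higher on the arrays labelled Foxp3 than on their mock arrays, and whether it reads the vector's transcript is not given in the sources used here. All 6 measured T cell markers passed the same intensity filter, with summed intensities of 14808 to 22764. The 4 measured B cell markers summed to 30.1 to 34.6 in Tconv mock, 259 to 425 in Tconv Foxp3-labelled, 52.3 to 505 in Treg mock, 71.4 to 279 in scurfy mock and 611 to 1641 in scurfy Foxp3-labelled cells. They were thus lowest in Tconv mock, the reference of 3 comparisons below, and their part in the results was not tested. The NK markers Ncr1 and Klra8 summed to at most 11.4 on any array.

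The core of the C/EBP-ATF response element, TGATGNAA, was looked for on both strands of RefSeq promoters (250 bases before to 50 after the annotated start, build GRCm38.p6). It was present in 9 of the 30 members with a promoter entry (30%), against 1219 of 27025 genes (4.51%). The members were chosen by name and include known ATF4 targets, so these shares are a description and not a test. This core was the one motif searched, and a match describes letters and not binding. The 7 tested members with a match are shown because their levels are compared with those of the other members further on. Each 30-base stretch reads 5' to 3' on the strand of the gene, with the match in capitals.

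Asns: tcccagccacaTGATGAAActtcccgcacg
Slc1a4: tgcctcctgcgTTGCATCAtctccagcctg
Nupr1: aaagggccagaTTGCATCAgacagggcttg
Chac1: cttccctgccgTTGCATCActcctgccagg
Trib3: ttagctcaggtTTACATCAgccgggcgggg
Vldlr: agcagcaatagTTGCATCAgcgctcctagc
Got1: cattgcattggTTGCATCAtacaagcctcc

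These stretches lie at chr6:7693214-7693243 for Asns, chr11:20332699-20332728 for Slc1a4, chr7:126625562-126625591 for Nupr1, chr2:119351038-119351067 for Chac1, chr2:152344028-152344057 for Trib3, chr19:27216809-27216838 for Vldlr, chr19:43524689-43524718 for Got1. The Chac1 and Vldlr genes are on the plus strand and the other 5 on the minus strand. Counted from the annotated start, the first base of the match lies at -23 in Asns, -4 in Slc1a4, -110 in Nupr1, -193 in Chac1, 15 in Trib3 (within the transcribed part), -200 in Vldlr (1 of 2 annotated starts) and -102 in Got1. Slc7a11 and Pycr1 also held a match. The 250 bases before the start are given for Asns, which holds a match, and Phgdh, which holds none, because these enzymes had the lowest levels in different groups.

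Asns: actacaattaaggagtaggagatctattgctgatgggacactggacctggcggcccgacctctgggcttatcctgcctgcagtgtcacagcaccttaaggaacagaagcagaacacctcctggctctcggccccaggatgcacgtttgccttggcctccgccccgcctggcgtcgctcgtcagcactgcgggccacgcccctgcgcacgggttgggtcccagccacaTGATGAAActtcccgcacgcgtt
Phgdh: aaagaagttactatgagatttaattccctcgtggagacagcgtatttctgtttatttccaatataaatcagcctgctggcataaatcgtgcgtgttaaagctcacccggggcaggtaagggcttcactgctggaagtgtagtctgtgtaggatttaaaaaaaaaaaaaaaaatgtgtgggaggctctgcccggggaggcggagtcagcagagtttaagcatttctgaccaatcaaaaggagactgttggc

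The Asns stretch is chr6:7693210-7693459 and the Phgdh stretch chr3:98339970-98340219, both on the minus strand.

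Across the 5 groups, the members stood highest most often in Tconv mock cells and lowest most often in Treg mock cells. By group mean, 11 of 34 members had their highest level in Tconv mock cells, where 7.28% of all tested genes had theirs. Treg mock cells held the lowest mean for 14 of 34 members, against 16.8% of all genes. All 5 one-carbon members had their highest mean in Tconv Foxp3-labelled cells, as 34% of all genes did. In bulk RNA, a smaller share of cells that express a gene and less RNA per cell cannot be told apart.

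Differences below are between group means of log2(intensity + 16), a scale that understates the change of genes with low intensity, and calls are those with a limma adjusted p under 0.05 over all genes. Treg mock against Tconv mock cells gave a median of -0.68 over the 34 members, with 0.19 over all genes. A single member was called, Slc1a4, which was lower, while 0.203% of all genes were called lower. At an unadjusted p under 0.05, 16 members were lower and 1 higher (all genes, 3.53% and 11.9%). One of the 16, Cth, passed the intensity filter through GFP- arrays alone, so its direction against Tconv mock followed from the filter, and 15 of the other 33 members were lower. Arrays of the 2 groups did not overlap for 18 members that were lower and 4 that were higher (all genes, 16.3% and 35.2%).

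Scurfy mock against Tconv mock cells gave a member median of -0.30, with 0.22 over all genes. Phgdh alone was called, lower, where 0.133% of all genes were. At an unadjusted p under 0.05, 2 members were lower and 1 was higher, Atf5 (all genes, 2.83% and 11.0%). The lower ones were Phgdh and Cth, whose direction the filter set, which leaves 1 of 33. Groups did not overlap for 9 lower and 5 higher members (all genes, 12.1% and 38.8%). Tconv Foxp3-labelled against Tconv mock cells gave a member median of -0.32, with 0.26 over all genes. Nupr1 alone was called, lower, where 0.0530% of all genes were. In that comparison 8 members were lower and 1 higher at an unadjusted p under 0.05 (all genes, 2.74% and 11.2%). Without Cth, which passed the filter through GFP- arrays alone, 7 of 33 members were lower. Groups did not overlap for 19 lower and 8 higher members (all genes, 11.6% and 47.6%). These 3 comparisons share the Tconv mock arrays, so their values are given side by side and not as independent results. On Tconv mock array 2, 24 of the 34 members were higher than on array 1.

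**Figure D1:**
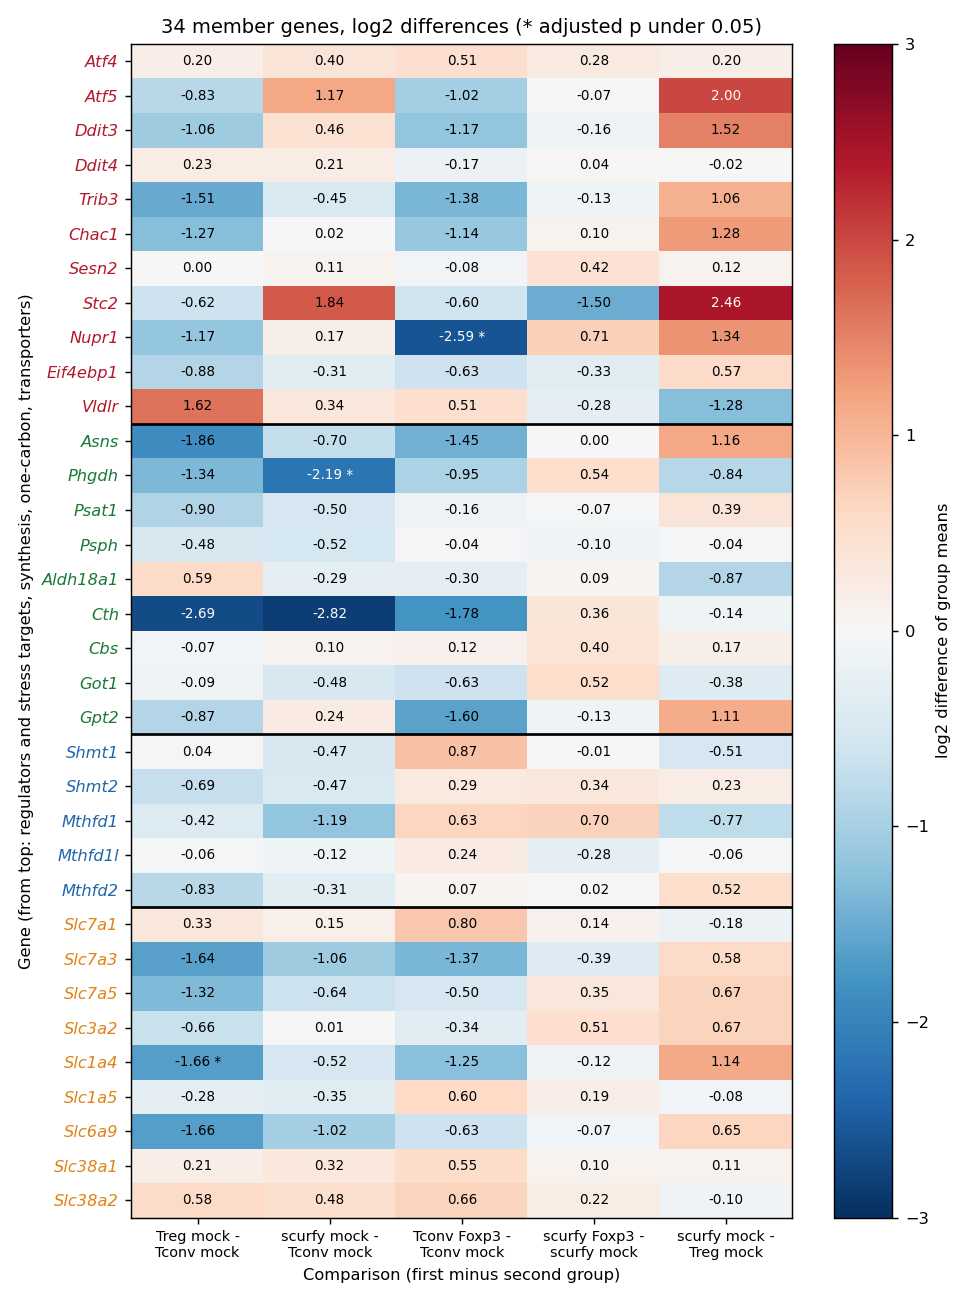
Log2 differences of the 34 tested members (down the vertical axis, by role) in 5 comparisons (horizontal axis, first minus second group), coloured from lower (blue) to higher (red), with a star at an adjusted p under 0.05. Columns named Foxp3 are the Foxp3-labelled groups. Slc1a4 (-1.66), Phgdh (-2.19) and Nupr1 (-2.59) are the calls of the first 3 comparisons.

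Among the regulators, no difference in the mRNA of Atf4 itself was called. It read 1299 and 1926 in Tconv mock, 2564 and 1984 in Tconv Foxp3-labelled, 1695 and 1953 in Treg mock, 2092 and 2081 in scurfy mock, and 2638 and 2432 in scurfy Foxp3-labelled cells. Its log2 differences from Tconv mock were 0.20 in Treg mock, 0.40 in scurfy mock and 0.51 in Tconv Foxp3-labelled cells, the first of which turned sign under another scaling of the arrays. Another well-measured probe set of Atf4 gave -0.62, 0.38 and -0.10 for these differences. The 2 probe sets thus disagree in sign in Treg mock and in Tconv Foxp3-labelled cells.

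Ddit3, which encodes the stress factor CHOP, read 547 and 423 in Tconv mock, 248 and 167 in Tconv Foxp3-labelled, 253 and 196 in Treg mock, 815 and 546 in scurfy mock, and 741 and 476 in scurfy Foxp3-labelled cells. Both scurfy groups and Tconv mock were above both Treg mock and Tconv Foxp3-labelled arrays, without overlap. Its log2 differences were -1.06 (SE 0.35, adjusted p = 0.19) for Treg mock and -1.17 (SE 0.35, adjusted p = 0.23) for Tconv Foxp3-labelled against Tconv mock, and 1.52 (SE 0.35, adjusted p = 0.16) for scurfy mock against Treg mock. None was called. A second probe set of Ddit3, above the median of all 10 arrays, gave 0.02, -0.28 and 0.30 for these 3 differences. The probe sets thus disagree in size, and in Treg mock against Tconv mock cells also in sign.

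Atf5, a relative of Atf4 that also acts in the mitochondrial stress response, read 593 and 588 in Tconv mock, 305 and 263 in Tconv Foxp3-labelled, 233 and 454 in Treg mock, 2436 and 746 in scurfy mock, and 1503 and 1103 in scurfy Foxp3-labelled cells. All 4 scurfy arrays were above all 6 others. The difference of scurfy mock from Treg mock was 2.00 (SE 0.52, adjusted p = 0.23), and the gap between the 2 scurfy mock arrays was wide. Stc2, a secreted glycoprotein induced by stress, had the same wide gap, with 6330.1 and 857 in scurfy mock against 486 and 849 in Tconv mock. Array 1 of scurfy mock, the brighter one for both genes, had the lowest mean correlation with the other arrays (r = 0.905), and neither gene was called with all arrays.

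Trib3, a pseudokinase that CHOP and ATF4 induce, read 327 and 346 in Tconv mock and 154 and 91.6 in Tconv Foxp3-labelled cells. It read 70.2 and 162 in Treg mock, 535 and 105 in scurfy mock, and 186 and 261 in scurfy Foxp3-labelled cells. Tconv mock was above Treg mock and Tconv Foxp3-labelled cells on both arrays, while the 2 scurfy mock arrays lay far apart. A second probe set gave -0.60 in Treg mock, where the one used gave -1.51. Chac1, which degrades glutathione, read 116 and 181 in Tconv mock, 78.9 and 40.2 in Tconv Foxp3-labelled, 59.1 and 44 in Treg mock, 230.4 and 92.3 in scurfy mock, and 171 and 147 in scurfy Foxp3-labelled cells. Its differences from Tconv mock were -1.27 (SE 0.43, adjusted p = 0.20) in Treg mock and -1.14 (SE 0.43, adjusted p = 0.31) in Tconv Foxp3-labelled cells.

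Nupr1, a small stress-induced chromatin protein, was close to background in Tconv Foxp3-labelled cells. It read 75 and 117 in Tconv mock, 3.18 and 1.42 in Tconv Foxp3-labelled, 39.1 and 27.4 in Treg mock, 119 and 97.3 in scurfy mock, and 265 and 128 in scurfy Foxp3-labelled cells. Against Tconv mock it fell by 2.59 (SE 0.36, adjusted p = 0.04997) in Tconv Foxp3-labelled cells, and a second probe set gave -2.06. The adjusted p stood just under the threshold. The call was lost without any 1 of the 10 arrays, with differences from -2.86 to -2.32 and adjusted p of 0.050 to 0.69. The Foxp3-label effect in scurfy minus that in Tconv cells was 3.30 for Nupr1 (SE 0.51, adjusted p = 0.21).

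Of the other regulators and targets, Ddit4, an mTORC1 inhibitor, ran from 5011 to 7673 over the 10 arrays. Sesn2, a leucine-binding inhibitor of mTORC1, ran from 361 to 677, and Eif4ebp1, which restrains cap-dependent translation, from 227 to 581. Vldlr, a lipoprotein receptor, read 37.2 and 33.2 in Tconv mock against 141 and 142 in Treg mock cells, a difference of 1.62 (SE 0.53, adjusted p = 0.19). Its other probe sets, dimmer on average, gave 0.55 to 0.87 for this difference. Vldlr was the 1 member higher in Treg mock cells at an unadjusted p under 0.05.

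**Figure D2:**
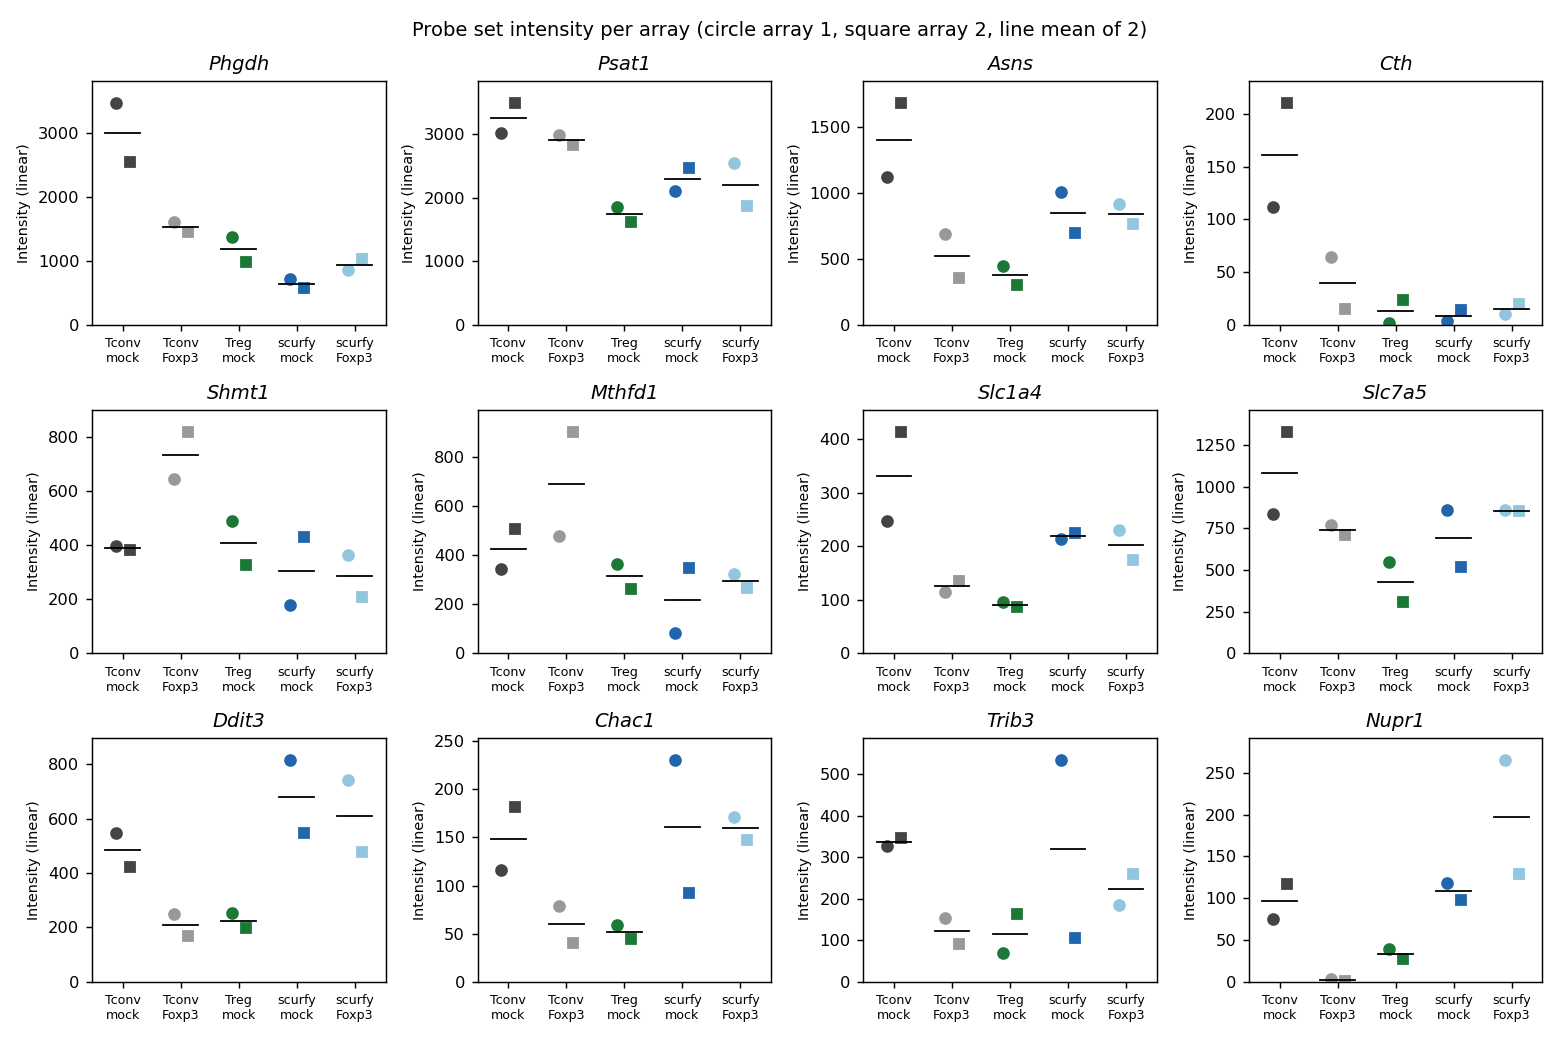
Deposited linear intensity (vertical axes, starting at 0) of 12 members on array 1 (circle) and array 2 (square) of the 5 groups (horizontal axes), with the mean of both as a line. Asns is highest on the Tconv mock arrays (1117 and 1677) among all groups, Phgdh is lowest in scurfy mock (716 and 574), and Nupr1 is close to 0 in Tconv Foxp3-labelled cells (3.18 and 1.42).

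Among the synthesis enzymes, Asns, which makes asparagine, read 1117 and 1677 in Tconv mock, 684 and 353 in Tconv Foxp3-labelled, 449 and 298 in Treg mock, 1005 and 692 in scurfy mock, and 915 and 764 in scurfy Foxp3-labelled cells. Both Tconv mock arrays were above every other array, and both Treg mock arrays were below both arrays of each scurfy group. The differences from Tconv mock were -1.86 (SE 0.39, adjusted p = 0.068) in Treg mock, -1.45 (SE 0.39, adjusted p = 0.20) in Tconv Foxp3-labelled and -0.70 (SE 0.39, adjusted p = 0.46) in scurfy mock cells. None was called, and a second probe set gave -1.98 and -1.58 for the first pair.

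The serine pathway runs from Phgdh through Psat1 to Psph, which together turn a glycolytic intermediate into serine. Phgdh read 3466 and 2548 in Tconv mock, 1604 and 1456 in Tconv Foxp3-labelled, 1378 and 981 in Treg mock, 716 and 574 in scurfy mock, and 860.4 and 1021 in scurfy Foxp3-labelled cells. Tconv mock was highest and scurfy mock lowest, with no overlap between either and any other group. In scurfy mock against Tconv mock cells Phgdh fell by 2.19 (SE 0.29, adjusted p = 0.017). The call was lost without scurfy mock array 1 (-2.34, adjusted p = 0.058), Tconv mock array 1 (-1.96, adjusted p = 0.15) or Tconv mock array 2 (-2.41, adjusted p = 0.10). It was also lost with the mean of all Phgdh probe sets (-1.21, adjusted p = 0.077), the other 3 having given -1.01, -0.24 and -1.42.

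Phgdh in Treg mock cells differed from Tconv mock by -1.34 (SE 0.29, adjusted p = 0.073), and in Tconv Foxp3-labelled cells by -0.95 (SE 0.29, adjusted p = 0.24). The other 3 probe sets gave -0.58, 0.26 and -0.17 for the first of these. Psat1 read 3017 and 3484 in Tconv mock, 2984 and 2829 in Tconv Foxp3-labelled, 1859.7 and 1617 in Treg mock, 2109.5 and 2468 in scurfy mock, and 2546 and 1863 in scurfy Foxp3-labelled cells. Psph read 1281 and 1476 in Tconv mock, 1305 and 1376 in Tconv Foxp3-labelled, 889.6 and 1083 in Treg mock, 944 and 966 in scurfy mock, and 1209 and 650.3 in scurfy Foxp3-labelled cells. For each of the 3 enzymes, every one of the 6 GFP+ arrays was below every one of the 4 GFP- arrays.

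The 3 GFP+ groups were also compared together with the 2 GFP- groups. The serine enzymes were the only 3 of 34 members whose GFP+ and GFP- arrays did not overlap, all lower in GFP+ cells, where 2.59% of all genes did not overlap in that direction and 3.60% in the other. Phgdh fell by 1.25 (SE 0.19, adjusted p = 0.010), while Psat1 (-0.58, SE 0.17, adjusted p = 0.096) and Psph (-0.52, SE 0.21, adjusted p = 0.19) were not called. In all, 2 members were called lower, Phgdh and Cth, and 1 higher, Nupr1 (all genes, 1.18% and 3.46%). Cth could be tested only because it was high in GFP- cells, and without it 1 of 33 members was called lower. At an unadjusted p under 0.05, 9 members were lower, or 8 without Cth, and 2 higher (all genes, 7.69% and 14.0%). With the mean of all Phgdh probe sets the Phgdh difference was -0.61 (adjusted p = 0.062). Without 1 of Tconv Foxp3-labelled array 1 (-1.21), its array 2 (-1.28) or Tconv mock array 1 (-1.14) the Phgdh call was lost, at adjusted p of 0.059, 0.058 and 0.053.

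Cth, which makes cysteine from cystathionine, read 112 and 210.2 in Tconv mock, 63.9 and 14.6 in Tconv Foxp3-labelled, 1.62 and 23.7 in Treg mock, 3.31 and 13.9 in scurfy mock, and 10.5 and 19.9 in scurfy Foxp3-labelled cells. It passed the filter through 3 GFP- arrays alone, so it had to be higher there, and its GFP+ levels were near or below the array medians. Its differences from Tconv mock were -2.69 (SE 0.55, adjusted p = 0.062) in Treg mock and -2.82 (SE 0.55, adjusted p = 0.072) in scurfy mock cells. In GFP+ against GFP- cells it fell by 1.77 (SE 0.36, adjusted p = 0.028), with overlap of 1 GFP- array with the GFP+ arrays. The call was lost without scurfy Foxp3-labelled array 1 (-1.69) or array 2 (-1.84), Tconv Foxp3-labelled array 1 (-1.42), or Tconv mock array 1 (-1.97) or array 2 (-1.56), with adjusted p of 0.054 to 0.11. Nupr1 was higher in GFP+ cells by 1.25 (SE 0.23, adjusted p = 0.022), with overlapping arrays. Against Tconv mock alone, Nupr1 differed by -1.17 in Treg mock and by 0.17 in scurfy mock cells. The other GFP- group, Tconv Foxp3-labelled cells, had Nupr1 close to background. Its call was lost without Tconv Foxp3-labelled array 1 (1.29) or 2 (1.22) or Tconv mock array 1 (1.11) or 2 (1.39), with adjusted p of 0.051 to 0.11.

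Gpt2, a mitochondrial alanine aminotransferase, varied widely between arrays of a group, with 63.8 and 378 in Treg mock and 625 and 213 in scurfy mock cells. Got1, the cytosolic aspartate aminotransferase, ran from 1277 to 2897 over all arrays, and Aldh18a1, which starts proline synthesis, from 111 to 325. Cbs, which makes cystathionine, ran from 20.7 to 60.9, close to the array medians. None of these 4 was called in any of the 7 comparisons.

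**Figure D3:**
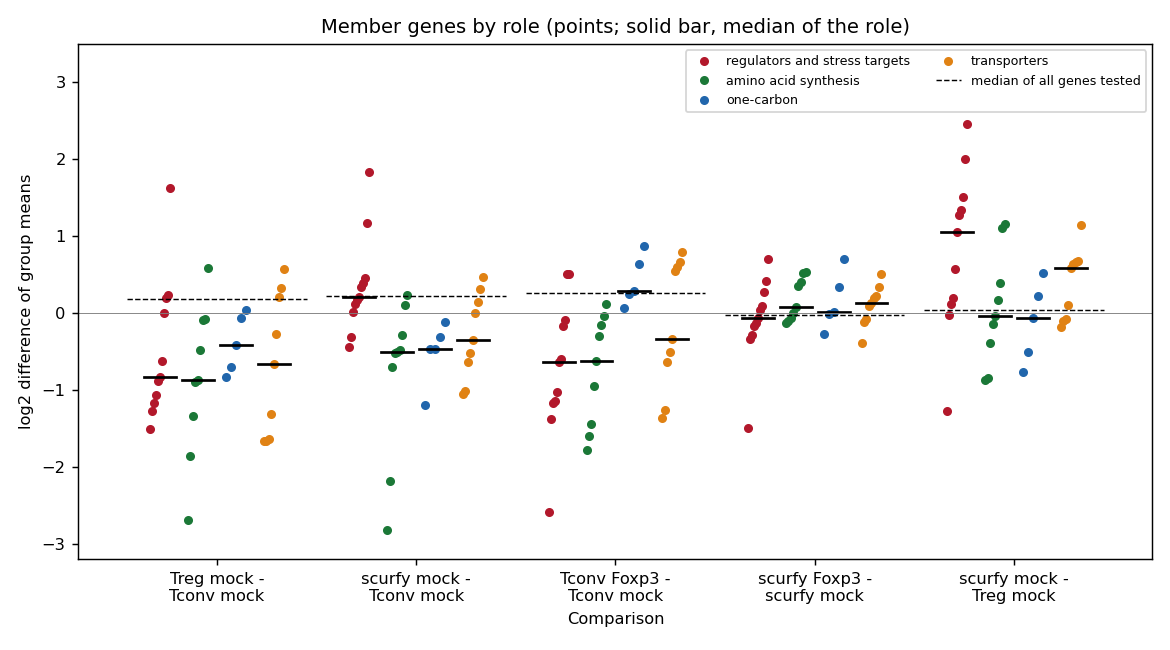
Log2 differences of the tested members (points, coloured by role) in 5 comparisons on the horizontal axis, with the median of each role as a solid bar and that of all genes as a dashed line. In Treg mock against Tconv mock cells the role medians lie at -0.83 for regulators, -0.87 for synthesis, -0.42 for one-carbon and -0.66 for transporters, and in Tconv Foxp3-labelled against Tconv mock cells the one-carbon median is 0.29. Single arrays moved several of these medians by over 1.5 times.

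In Tconv Foxp3-labelled against Tconv mock cells the one-carbon enzymes had a median difference of 0.29, beside 0.26 over all genes, -0.63 over the regulators, -0.63 over the synthesis enzymes and -0.34 over the transporters. The synthesis median was -0.96 without Tconv Foxp3-labelled array 1 and -0.29 without its array 2, and the regulator median -0.99 and -0.28 without Tconv mock array 1 or 2. The transporter median was -0.56 and -0.04 without Tconv Foxp3-labelled array 1 or 2, and -0.17 without Tconv mock array 2. In Treg mock against Tconv mock cells the regulator median was -0.37 and the synthesis median -0.34 without Treg mock array 1, while the transporters ran from -0.72 to -0.62. The regulator median there was -0.53 without Tconv mock array 2, and the one-carbon median was -0.64 and -0.19 without Treg mock array 1 or 2 and -0.69 and -0.15 without Tconv mock array 1 or 2. The difference between roles was not tested, and leaving out Tconv mock array 1 or 2 put the one-carbon median at 0.14 or 0.51. Shmt1, the cytosolic enzyme that splits serine into glycine and a one-carbon unit, read 398 and 383 in Tconv mock, 645 and 819.7 in Tconv Foxp3-labelled, 489 and 328 in Treg mock, 177 and 429.9 in scurfy mock, and 365 and 207 in scurfy Foxp3-labelled cells. Its arrays in Tconv Foxp3-labelled cells were above all others, with a difference from Tconv mock of 0.87 (SE 0.43, adjusted p = 0.41).

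Its mitochondrial counterpart Shmt2 read 979.5 and 1334 in Tconv mock, 1342 and 1468 in Tconv Foxp3-labelled, 756 and 649 in Treg mock, 679 and 998 in scurfy mock, and 1123 and 973 in scurfy Foxp3-labelled cells. Mthfd2, the mitochondrial dehydrogenase that ATF4 induces, read 705 and 1147 in Tconv mock, 995 and 900.3 in Tconv Foxp3-labelled, 458 and 543 in Treg mock, 898 and 584 in scurfy mock, and 907 and 594 in scurfy Foxp3-labelled cells. Both Treg mock arrays of Mthfd2 were below every other array. Mthfd1, the cytosolic trifunctional enzyme, ran from 83.5 to 903 and Mthfd1l, its mitochondrial relative, from 379.5 to 855. No one-carbon member was called in any comparison. The positive sign of Shmt2, Mthfd1l and Mthfd2 in Tconv Foxp3-labelled against Tconv mock cells turned when arrays were scaled otherwise.

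Among the transporters, Slc1a4, which carries alanine, serine and cysteine, read 247 and 415 in Tconv mock, 115 and 136 in Tconv Foxp3-labelled, 95.3 and 86.1 in Treg mock, 215 and 224 in scurfy mock, and 231 and 175 in scurfy Foxp3-labelled cells. Both Treg mock arrays were lowest, then both Tconv Foxp3-labelled arrays, and no array of these groups reached the scurfy or Tconv mock arrays. In Treg mock against Tconv mock cells it fell by 1.66 (SE 0.30, adjusted p = 0.042), and 2 other probe sets gave -1.13 and -0.66. The difference was -1.25 (SE 0.30, adjusted p = 0.17) in Tconv Foxp3-labelled cells, -0.52 in scurfy mock cells, and 1.14 (SE 0.30, adjusted p = 0.25) for scurfy mock against Treg mock cells. The Treg mock call was lost without any 1 array other than those of scurfy mock. Those values were -1.72 and -1.60 without Treg mock array 1 or 2, -2.01 and -1.30 without Tconv mock array 1 or 2, and -1.66 without either array of the other 2 groups, with adjusted p of 0.059 to 0.31.

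Slc7a5, which imports leucine and other large neutral amino acids, read 834 and 1331 in Tconv mock, 768 and 710.5 in Tconv Foxp3-labelled, 549 and 311 in Treg mock, 863 and 519 in scurfy mock, and 857 and 854 in scurfy Foxp3-labelled cells. Its difference in Treg mock from Tconv mock was -1.32 (SE 0.37, adjusted p = 0.14). Its partner chain Slc3a2 read 775 and 786 in Tconv mock, 759 and 497 in Tconv Foxp3-labelled, 503 and 471 in Treg mock, 891 and 690.1 in scurfy mock, and 1084 and 1160.2 in scurfy Foxp3-labelled cells. Slc3a2 was highest on both scurfy Foxp3-labelled arrays.

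Other transporters stood higher in Tconv Foxp3-labelled than in Tconv mock cells without being called, where the median over all genes was 0.26. Slc7a1, the arginine and lysine importer, read 1014 and 1381 in Tconv mock against 1913 and 2239 in Tconv Foxp3-labelled cells, a difference of 0.80 (SE 0.28, adjusted p = 0.29), and ran from 1293 to 1719 over the other 3 groups. Slc1a5, a glutamine carrier, read 338 and 467 against 584 and 637, and Slc38a2, a glutamine and alanine carrier induced by amino acid shortage, 585 and 543 against 991 and 822. Another probe set of Slc38a2 went the other way (-0.52, where the one used gave 0.66), and another of Slc1a5 gave 0.23, where the one used gave 0.60. After quantile normalization the differences were 0.52 for Slc7a1, 0.26 for Slc1a5 and 0.34 for Slc38a2, with 0.01 over all genes. Slc38a1 ran from 1097 to 1835 over all arrays, and the glycine transporter Slc6a9 from 5.24 to 115. Slc7a3, a second arginine carrier, was at 45 and 119 in Tconv mock and at 4.56 to 43.9 elsewhere.

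Within scurfy cells, no member was called between Foxp3-labelled and mock cells, where 0.0353% of all genes were. The median over members was 0.06, with -0.02 over all genes. By limma, 0 of 34 members had an unadjusted p under 0.05, against 4.24% of all genes (1.40% lower and 2.84% higher). Groups did not overlap for 1 lower and 7 higher members (all genes, 8.84% and 14.0%). Of the 34 members, 9 differed by more than 1 log2 unit between the 2 scurfy mock arrays (14% of all genes) and 0 between the scurfy Foxp3-labelled arrays (15.8%). The label's effect in scurfy minus that in Tconv cells had a median of 0.34 over members and -0.28 over all genes. By limma 0 members were called, as were 0 of all genes. At an unadjusted p under 0.05, 6 members were higher, or 5 without Cth, and 0 lower (all genes, 2.52% and 5.54%). Among them, Asns had 1.45 (SE 0.56, adjusted p = 0.62) and Phgdh 1.49 (SE 0.41, adjusted p = 0.48).

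Scurfy mock against Treg mock cells compares GFP+ cells of DEREG/Scurfy mice, which carry the scurfy mutation, with those of DEREG mice. The mutation and any other difference between these mice cannot be told apart. The median difference was 1.06 over the regulators, 0.58 over the transporters, -0.04 over the synthesis enzymes and -0.06 over the one-carbon enzymes, against 0.04 over all genes. The regulator median rested on single arrays, with 0.29 without scurfy mock array 1 and 0.53 without Treg mock array 1. The transporter median was 0.22 without scurfy mock array 1, 0.37 without Treg mock array 1 and 0.24 without Treg mock array 2. By limma no member was called (all genes, 0.256%), while at an unadjusted p under 0.05, 8 members were higher, 5 of them regulators, and 3 lower (all genes, 3.78% and 4.15%). Groups did not overlap for 13 higher and 5 lower members (all genes, 18.0% and 14.5%). Phgdh went the other way from Asns, with -0.84 (SE 0.29, adjusted p = 0.44) against 1.16 (SE 0.39, adjusted p = 0.43).

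The 7 tested members with the response element core in the promoter window had lower medians in the comparisons of Treg mock and Tconv Foxp3-labelled with Tconv mock cells than the 21 without. In Treg mock cells the medians were -1.27 with and -0.48 without a match, and in Tconv Foxp3-labelled cells -1.25 and -0.08. The 6 tested members with no promoter entry had medians of -1.10 and -0.57 in these comparisons, between those of the other sets. In scurfy mock against Tconv mock cells the medians were -0.45 with a match, 0.01 without and -0.50 with no promoter entry. In the same order they were 1.14, 0.17 and 0.34 in scurfy mock against Treg mock cells. In GFP+ against GFP- cells they were 0.14, 0.12 and -0.53. The members were read from the shared Tconv mock arrays, and these medians are a description without a test.

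**Figure D4:**
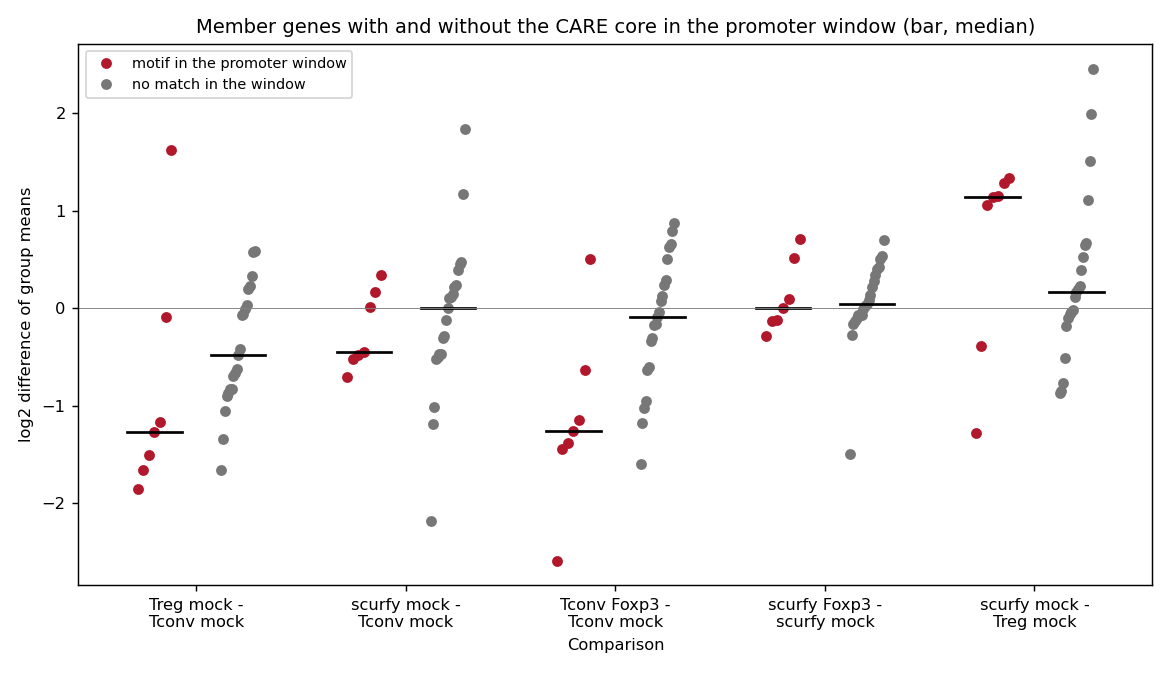
Log2 differences of members with (7) and without (21) the response element core in the promoter window (points) in the comparisons on the horizontal axis, with medians as bars. The medians are farthest apart in Tconv Foxp3-labelled against Tconv mock cells, at -1.25 and -0.08.

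Other genes of the pathway were read from lists apart from the members. The 14 genes for aminoacyl-tRNA synthetases, which charge tRNA and many of which ATF4 induces, and for the tRNA exporter Xpot had a median of -0.60 in Treg mock and -0.46 in scurfy mock against Tconv mock cells, with 13 of 14 below 0 in each (all genes, 35.2% and 32.0%). Their median was -0.10 in Tconv Foxp3-labelled cells. None was called. Sars had -0.97 (SE 0.26, adjusted p = 0.12) and Aars -1.07 (SE 0.38, adjusted p = 0.22) in Treg mock cells. The response element core was in 5 of the 9 with a promoter entry (55.6%). The 11 integrated stress response regulators, which include the eIF2 kinases, had medians of 0.16, 0.25 and 0.18 in Treg mock, scurfy mock and Tconv Foxp3-labelled cells, near those of all genes (0.19, 0.22 and 0.26), and none was called.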

How the data were processed

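RNA of 10 cell samples (5 groups of 2) was measured on Affymetrix mouse arrays after RNeasy Micro extraction and NuGEN FL-Ovation labelling, per the labels' protocols. The authors deposited linear intensity values per probe set from Affymetrix Expression Console, per the submitters' processing notes. No source used here names the summary method or a scaling, and the number of arrays limits the precision.

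Of 45101 probe sets, 64 were controls, 34945 had 1 gene symbol in the platform annotation, 932 had several and 9160 had none. Per gene, the single-symbol probe set with the highest mean log2(intensity + 16) was kept, and genes exceeding the median intensity of 2 or more arrays were tested with limma 3.58.1 in R 4.3.3 (lmFit, eBayes) in 1 fit of the 5 groups, two-sided, with Benjamini-Hochberg adjustment over all 11318 genes. The fit had 5 residual degrees of freedom and 7 comparisons. It was tested on simulated data. The genes, lists and tests were chosen with earlier results of these data known. Every member with a probe set could be named with its level. Alternatives covered scaling, pseudocount, filter, probe set choice, the variance model, the samples fitted, the replicate number as a block, and leaving out arrays.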

Additional observations from a re-analysis of the deposited data

How the results depend on the processing

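The member median relative to all genes kept its direction in every comparison and alternative run. Against Tconv mock cells it was -0.87 in Treg mock (-1.06 to -0.63 with 1 array left out, the last without Tconv mock array 2) and -0.52 in scurfy mock cells (-0.52 to -0.18, the last again without Tconv mock array 2). The counts of called members were less stable, and the cause was not tested. In Treg mock against Tconv mock cells the count of 1 became 2 after quantile normalization, 3 after scaling to the 75th percentile, 0 with a pseudocount of 1, 2 with one of 64, 0 with no filter, 5 with a trended robust prior, 0 with only the groups compared, 0 without the 2 least correlated arrays, and 0 to 1 with 1 array left out. In scurfy mock against Tconv mock cells the count of 1 became 2 with the 75th percentile, 0 with the mean of probe sets, 2 with a trended robust prior, 0 with only the groups compared, 0 without the 2 least correlated arrays, and 0 to 2 with 1 array left out. In Tconv Foxp3-labelled against Tconv mock cells the count of 1 became 0 with a pseudocount of 64, with probe sets averaged per gene, with no filter or one at the 75th percentile, without the 2 least correlated arrays and with any 1 array left out. In scurfy mock against Treg mock cells the count of 0 ran from 0 to 2 with 1 array left out (2 without scurfy mock array 2). In GFP+ against GFP- cells the count of 3 became 5 with the 75th percentile, 1 with a filter at the 75th percentile, and 0 to 5 with 1 array left out (0 without Tconv Foxp3-labelled array 1 or Tconv mock array 1, 5 without scurfy mock array 2). It stayed at 0 in both other comparisons. The alternative without the 2 least correlated arrays, and role medians with 1 array left out, were added after seeing the data. Wherever 1 array was left out, the other array of its group was assumed to vary like the other groups.

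With the replicate number as a block, 0 members were called in Treg mock and 0 in Tconv Foxp3-labelled against Tconv mock cells. Same-numbered arrays deviated together with correlations of -0.172 to 0.185 over pairs of groups, so the numbers were not taken to pair the samples.

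Quantile normalization moved the median of all genes from 0.19 to -0.05 in Treg mock, 0.22 to -0.02 in scurfy mock and 0.26 to 0.01 in Tconv Foxp3-labelled against Tconv mock cells, and 5, 8 and 4 members turned sign there under at least 1 scaling. Levels near the array medians, as of Cth, Cbs, Slc7a3 and Nupr1, were close to what the arrays resolve. Of 42 further well-measured probe sets of 23 members, 32 had the sign of the one used in Treg mock, 30 in scurfy mock and 37 in Tconv Foxp3-labelled against Tconv mock cells.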

Other observations

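Other stress programmes were read from separate lists. The 6 measured targets of NRF2, the regulator of the oxidative stress response, were all above 0 in Treg mock and in scurfy mock against Tconv mock cells, with medians of 0.58 and 0.69 (all genes, 0.19 and 0.22). Of all 11318 genes, 7334 and 7700 were above 0 in these comparisons. In GFP+ against GFP- cells Srxn1, which repairs oxidised peroxiredoxins, was called higher by 1.73 (SE 0.25, adjusted p = 0.0082) in limma. Hmox1, which breaks down heme, was called higher by 1.11 (SE 0.26, adjusted p = 0.047), although GFP+ and GFP- arrays overlapped for both genes. Of all genes, 3.46% were called higher in GFP+ cells. Srxn1 read 578 and 277 in Treg mock, 370 and 522 in scurfy mock, and 749 and 946 in scurfy Foxp3-labelled cells. In the same order, Hmox1 read 45.2 and 98.6, 73.4 and 130, and 210 and 191. In GFP- cells Srxn1 read 97.4 and 64.8 in Tconv Foxp3-labelled against 238 and 296 in Tconv mock cells, and Hmox1 43.7 and 25 against 71.9 and 40.9. In Tconv Foxp3-labelled against Tconv mock cells 4 of the 6 targets were above 0 and 2 below, with a median of 0.34 (all genes, 0.26). Of all 11318 genes, 8196 were above 0 there. The 11 measured targets of the unfolded protein response of the endoplasmic reticulum had medians of 0.15 in Treg mock and 0.54 in scurfy mock against Tconv mock cells. Dnajb9, a chaperone cofactor of the endoplasmic reticulum, was called higher in GFP+ than in GFP- cells by 1.44 (SE 0.21, adjusted p = 0.0084).

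Myc, which drives growth and amino acid uptake in activated T cells, read 901 and 919 in Tconv mock, 1423 and 1520.3 in Tconv Foxp3-labelled, 1069.9 and 692 in Treg mock, 191 and 393 in scurfy mock, and 406 and 532 in scurfy Foxp3-labelled cells. All 4 scurfy arrays were below all 6 others. In GFP+ against GFP- cells Myc was lower by 1.24 (SE 0.24, adjusted p = 0.024) in limma. Its difference from Tconv mock was -0.08 in Treg mock, -1.67 in scurfy mock and 0.68 in Tconv Foxp3-labelled cells. The 11 measured cell cycle genes had medians of 0.04, 0.27 and 0.52 in Treg mock, scurfy mock and Tconv Foxp3-labelled against Tconv mock cells. The 9 other amino acid transporters had 0.22, 0.06 and 0.03, and all genes 0.19, 0.22 and 0.26. No gene of either list was called.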
